A study of Sus scrofa with 10 samples.

Results

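The proteasome genes of pig liver were followed in 10 RNA-seq libraries, 5 from pigs of a high and 5 from pigs of a low growth and fatness phenotype. Both groups were male and shared the age label 175 (the labels name no unit), and no other treatment or genotype is named. A gene belonged to the family when its identifier mapped to a symbol starting with PSMA, PSMB, PSMC, PSMD, PSME, PSMF or PSMG and its value was above 0 in at least 1 library. This gave 27 genes of the 25009 in the table. PSMA8 and PSMB11, whose known expression is in testis and thymus, were listed at 0 in every library. A further 17 symbols of the family, among them PSMB10, PSMF1 and PSMG1, have identifiers in the name table that match no row and are not analysed here, and neither are PSMB5 and PSMB6, the constitutive counterparts of PSMB8 and PSMB9.

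The proteasome is the barrel-shaped protease that degrades proteins marked with ubiquitin. Its core particle is built of stacked rings of alpha and beta subunits, and a few of the beta subunits carry the cutting sites. The regulatory particle, with a ring of ATPases and a set of non-ATPase subunits, recognises ubiquitin chains, removes them and feeds the protein into the core. Interferon and leukocyte identity are known to bring in the immunoproteasome subunits PSMB8, PSMB9 and PSMB10, which take the place of constitutive beta subunits and change the peptides made for antigen presentation. Proteasome genes are used in every cell, and hepatocytes are known to make and turn over large amounts of protein.

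The 27 genes were 5 constitutive core subunits, 2 immunoproteasome subunits, 5 regulatory ATPases, 8 regulatory non-ATPase subunits, 4 activators, 2 assembly factors and PSMC3IP. PSMC3IP carries the prefix by name only, since its protein acts in meiotic recombination. It lay between 0.150 and 0.550 RPKM and was left out by the filter of a mean of at least 1 RPKM, so 26 of the 27 genes were tested. RPKM divides the reads of a gene by its length and by the library's mapped reads, which allows levels to be set side by side between genes. The values of a library summed to between 539327 and 567220 RPKM, and the absolute depth is unknown. The hepatocyte markers were high in each library, with albumin (ALB) at 22922 to 52025 RPKM, and markers of brain reached a summed 5.71 RPKM, in the high group. High replicates 1 and 5 held those brain transcripts, with GFAP at 3.66 and 4.22 RPKM. A principal component analysis of the tested genes outside the family put 42.9% of the variance on its first axis, which crossed the groups. Its top scores were 37.2 in high replicate 3, 32.6 in low replicate 2 and 28.6 in high replicate 1, and its bottom score was -40.5 in low replicate 4.

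The core and regulatory particle messages were among the more abundant of the family. Mean levels of the 5 constitutive core genes ran from 38.7 to 108 RPKM and those of the 13 regulatory subunit genes from 14.7 to 60.0 RPKM. The immunoproteasome genes lay below that range, PSMB8 at 13.4 and PSMB9 at 5.89 RPKM. Among the activators, PSME1 and PSME2, which form the ring-shaped cap induced by interferon, were high at 75.9 and 48.4 RPKM, PSME3 had 19.8 and PSME4 9.30 RPKM. The assembly factors were lower than every constitutive subunit, with PSMG3 at 9.08 and PSMD5 at 7.22 RPKM. The plot of levels by gene and library shows this order.

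**Figure D1:**
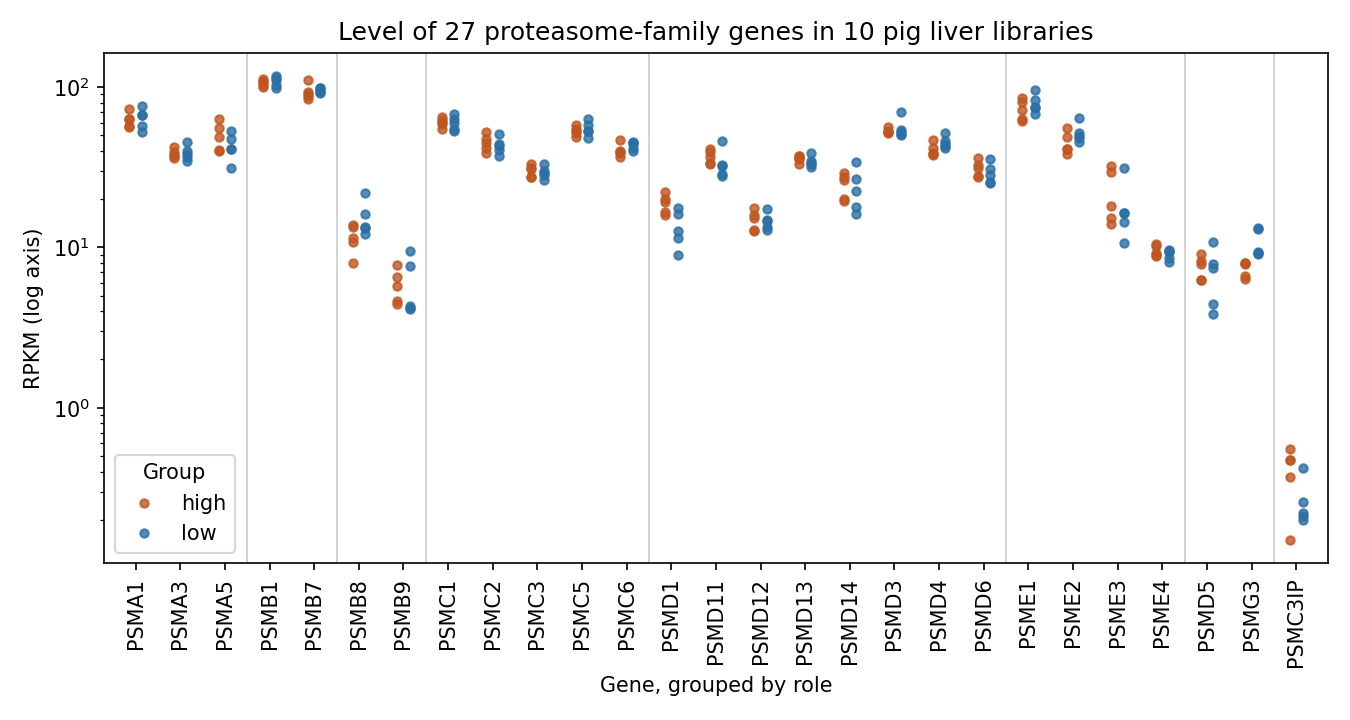
RPKM on a log axis for the 27 proteasome-family genes, grouped by role, with 1 point per library (5 high, 5 low). Constitutive core genes sit at means of 38.7 to 108 RPKM, PSMB9 at 5.89 RPKM, and PSMC3IP below 1 RPKM.

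No proteasome gene passed the test between high and low. Of the 26 tested, 0 had an adjusted p under 0.05 in limma (percent called over all 10931 genes tested, 0%). An unadjusted p under 0.05 was reached by 2, PSMG3 with the higher mean in low and PSMD1 with the higher mean in high, where 4.55% of all genes tested reached it (2.28% with the higher mean in low and 2.27% in high). The groups failed to overlap in 1 of the 26, PSMG3, against 0.805% of all genes tested (0.494% with low above high and 0.311% with high above low). The fitted mean was higher in high for 14 and in low for 12, where 48.8% of all genes tested were higher in high. The median log2 difference, high minus low on the log2(RPKM + 1) scale, was 0.013 over the 26 and -0.0049 over all genes tested. A p under 0.05 was given to PSMG3, PSMD1 and PSMD4, which is 3 of the 27 genes, by the authors' deposited table, and to 3.41% of all its rows.

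**Figure D2:**
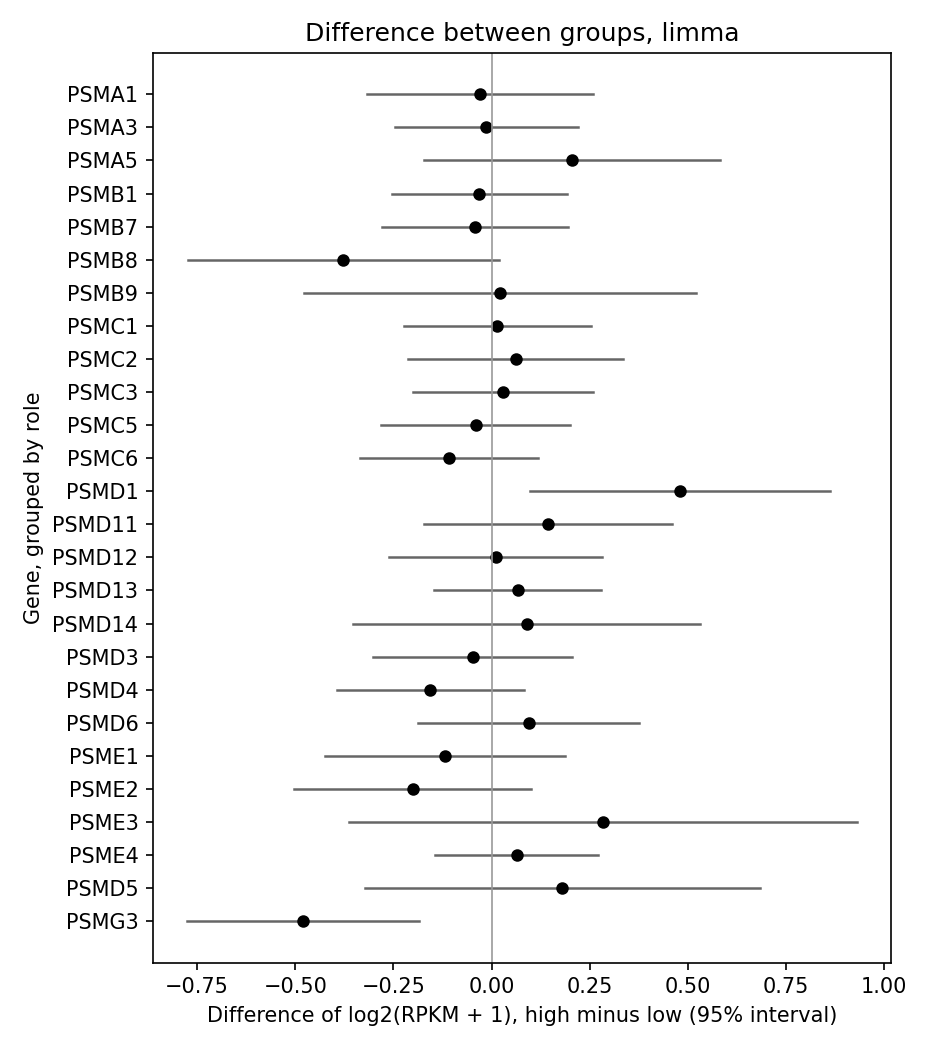
Difference of log2(RPKM + 1), high minus low, for each of the 26 tested genes, as point estimate with the 95% interval from limma. Most points lie close to 0, PSMG3 is lowest at -0.48 and PSMD1 highest at 0.48, and these are the intervals that leave out 0, before any adjustment.

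Of the 5 constitutive core subunits analysed, 4 differed little between the groups and between libraries. The other constitutive core subunits were not analysed here. The gene with the smallest spread of the family was PSMB1 (ENSSSCG00000027257), a non-catalytic beta subunit. It had 101, 109, 107, 102 and 113 RPKM in high replicates 1 to 5 and 98.9, 115, 111, 103 and 117 RPKM in low replicates 1 to 5. Its highest library was thus 1.18 times its lowest, and its SD on the log2 scale over 10 libraries, 0.082, ranked at the 0.558th percentile of all genes tested. PSMB7, the beta subunit with the trypsin-like site, had 93.8, 88.2, 90.2, 84.3 and 111 RPKM in high and 92.0, 98.7, 98.8, 96.2 and 93.8 RPKM in low, again with overlapping groups. The alpha subunits PSMA1 and PSMA3 had means of 62.6 ± 6.82 and 38.5 ± 2.36 RPKM in high and 64.1 ± 9.31 and 39.0 ± 4.10 RPKM in low (SD, n = 5 each). In these 4 genes the mean was a little higher in low, by 0.013 to 0.042 on the log2 scale, within the spread of the libraries.

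PSMA5 (ENSSSCG00000006830), another alpha subunit, was less steady than the other core genes. It had 63.0, 40.6, 55.2, 40.1 and 49.1 RPKM in high and 41.3, 53.2, 40.9, 31.4 and 47.7 RPKM in low. The highest values were in high replicates 1 and 3 and low replicate 2, the lowest in low replicate 4, and the groups overlapped. High minus low was 0.20 on the log2 scale (SE 0.17), with an adjusted p of 0.961 in limma. Over the 5 constitutive core genes the median log2 difference was -0.029.

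The regulatory ATPases PSMC1, PSMC2, PSMC3, PSMC5 and PSMC6, which unfold the substrate, had log2 differences between -0.11 and 0.06, and none of the 5 reached an unadjusted p under 0.05. Their highest library was 1.25 to 1.42 times their lowest. For PSMC3 the means were 30.0 ± 2.52 RPKM in high and 29.4 ± 2.47 RPKM in low. For PSMC1 they were 60.3 ± 3.59 and 59.8 ± 6.16 RPKM. The intervals of the ATPases limit a difference in log2 to between -0.34 and 0.34. In the current RefSeq annotation of pig (assembly Sscrofa11.1, not the build of these data) PSMC5 overlaps FTSJ3, which had 14.1 to 30.4 RPKM, and PSMC1 overlaps NRDE2. Strand is not marked by this kit, and reads over a shared stretch could count for either gene.

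Among the non-ATPase subunits PSMD1 had the largest difference between the group means. PSMD1 (ENSSSCG00000016272) is the large scaffold subunit on which the ubiquitin receptor ADRM1 docks. It had 22.1, 15.9, 19.2, 16.6 and 19.96 RPKM in high and 16.2, 17.7, 12.8, 9.01 and 11.4 RPKM in low. The lowest 3 values of all were those of low replicates 3, 4 and 5, while low replicates 1 and 2 lay among the high values, so the groups overlapped. The mean was 18.8 ± 2.54 RPKM in high and 13.4 ± 3.53 in low. The log2 difference was 0.48 (SE 0.17), with an unadjusted p of 0.0180 and an adjusted p of 0.961 in limma. Without high replicates 1 and 5 the unadjusted p was above 0.05, and the largest over all alternatives was 0.108. HTR2B overlaps PSMD1 in the RefSeq annotation and did not exceed 0.290 RPKM.

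PSMD3, a subunit of the same particle, did not follow PSMD1. PSMD3 had 53.4, 56.5, 52.3, 52.8 and 51.7 RPKM in high and 53.7, 50.2, 52.6, 70.2 and 51.3 RPKM in low. Its one high value was in low replicate 4, the library in which PSMD1 was lowest. Within a library PSMD1 was 41.4, 28.1, 36.8, 31.4 and 38.6% of PSMD3 in high and 30.2, 35.3, 24.3, 12.8 and 22.3% in low. This ratio is free of the scaling between libraries, and it spanned 28.1% to 41.4% in high and 12.8% to 35.3% in low, with overlap.

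PSMD4 (ENSSSCG00000006628), a ubiquitin receptor of the regulatory particle, had 41.5, 38.5, 38.4, 37.8 and 47.0 RPKM in high and 41.5, 51.9, 43.2, 44.2 and 46.2 RPKM in low. All low values but that of replicate 1 lay above 4 of the 5 high values, and the groups overlapped. The log2 difference was -0.16 (SE 0.11, unadjusted p = 0.177 and adjusted p = 0.961 in limma). A fold of 1.12 with a p of 0.04 stands in the authors' deposited table. Its positive sign goes with the higher mean in low, the same direction. The limma fit shares spread over all genes, so the SE of every gene, PSMD4 included, is a shared estimate in part. The test behind the deposited p is not known, and why its p differs from that of limma was not tested. The remaining non-ATPase genes PSMD6, PSMD11, PSMD12 and PSMD13, subunits of the lid, had log2 differences from 0.01 to 0.14. PSMD14, the deubiquitinase that removes the chain from the substrate, had 0.09. Over the 14 PSMC and PSMD genes, PSMD5 included, the median log2 difference was 0.045, and 10 were higher in high. That median was 0.0093 without high replicate 1, 0.0913 without low replicate 2 and -0.034 without high replicates 1 and 5 together.

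The immunoproteasome subunits varied more than the constitutive ones. PSMB8 (ENSSSCG00000026951), the interferon-induced subunit with the chymotrypsin-like site, had 8.01, 13.4, 11.5, 10.8 and 13.8 RPKM in high and 16.2, 21.8, 12.1, 13.3 and 13.3 RPKM in low. Low replicates 2 and 1 were highest and high replicate 1 lowest, and the other 7 libraries overlapped between 10.8 and 13.8 RPKM. The mean was 11.5 ± 2.32 RPKM in high and 15.3 ± 3.90 in low, with a log2 difference of -0.38 (SE 0.18, unadjusted p = 0.0596 and adjusted p = 0.961 in limma). Leaving out 1 library at a time moved this unadjusted p between 0.0385 and 0.151, and the difference between -0.45 and -0.25.

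The other immunoproteasome gene had nearly equal group means. PSMB9 (ENSSSCG00000001463), which replaces the caspase-like subunit, had 4.43, 7.79, 4.64, 6.57 and 5.73 RPKM in high and 7.64, 9.48, 4.12, 4.19 and 4.29 RPKM in low. Its values fell at both ends in the low group, with low replicates 1 and 2 among the highest 3 of all libraries and low replicates 3, 4 and 5 the lowest 3. High minus low was 0.02 (log2, SE 0.23), with a 95% interval of -0.48 to 0.52. PSMB9 was 40.5% to 61.0% of PSMB8 in high and 31.6% to 47.3% in low.

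Against the constitutive beta subunit PSMB7 in the same library, PSMB8 was 8.54% to 15.2% in high and 12.2% to 22.1% in low, and PSMB9 was 4.73% to 8.83% in high and 4.17% to 9.61% in low. PSMB8 and PSMB9 are known to be rich in leukocytes. The 5 of 6 leukocyte markers found summed to 62.3 to 84.0 RPKM in high and 58.6 to 140 in low. All 5 had the higher mean in low, with a median log2 difference of -0.28, and none reached an unadjusted p under 0.05 in limma. Markers of Kupffer cells and macrophages were higher in low for 4 of 5, those of B and plasma cells for 2 of 2. Sums of some other lists also ranged wider in low. The 3 of 6 endothelial markers found summed to 44.4 to 60.3 RPKM in high and 39.05 to 69.5 in low. Of these, 2 had the higher mean in high. For antigen processing genes the sums were 1205 to 1924 RPKM in high and 674.6 to 1878 in low. CALR, PDIA3 and CANX made up most of that sum, with 327, 224 and 92.3 RPKM in low replicate 4. Hepatocyte and red blood cell markers had the narrower range in low. PTPRC, the pan-leukocyte phosphatase, was highest in low replicate 2 (20.1 RPKM) as PSMB8 was, where 24.9% of all genes tested had their highest value. The 7 of 10 T and NK cell markers found summed to 17.2 to 31.8 RPKM in high and 23.6 to 48.6 in low, and no marker found was at 0 in every library. Of the 6 T and NK cell markers tested 0 passed over all genes, 3 reached an unadjusted p under 0.05 (LCK, CD247 and CD8A), and all 6 had the higher mean in low, with a median log2 difference of -0.51. Of all genes tested 2.28% reached that p with the higher mean in low. The part of these cells in the levels of PSMB8 and PSMB9 was not tested. In a piece of tissue, fewer cells of a type and less RNA per cell cannot be told apart.

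**Figure D3:**
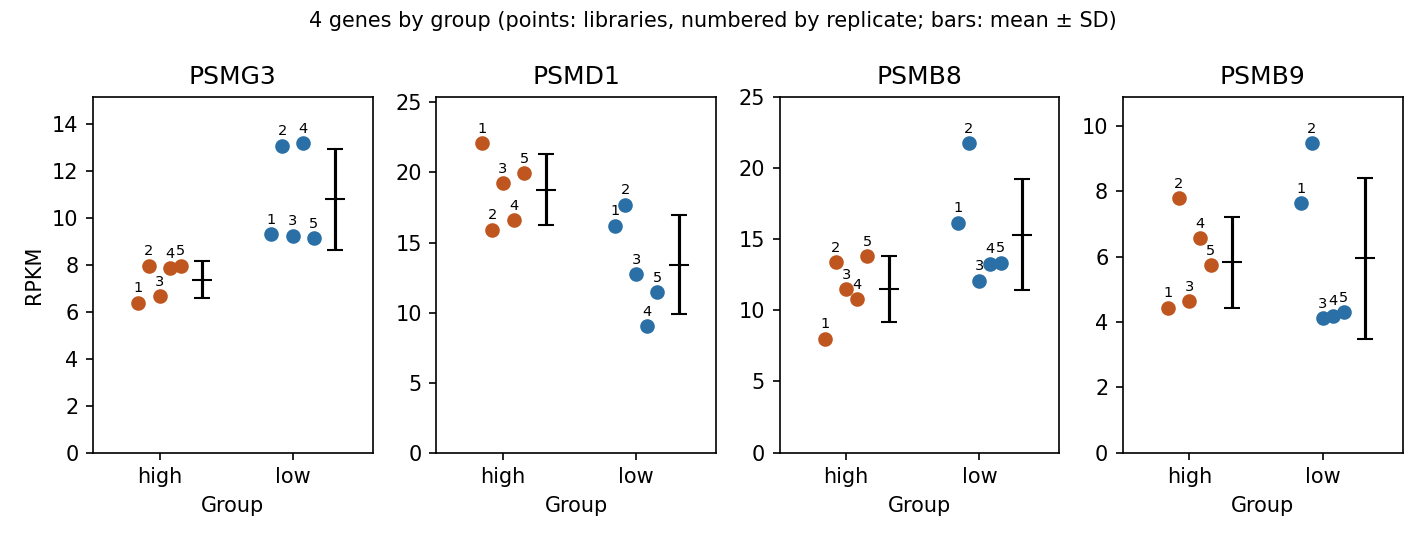
RPKM of PSMG3, PSMD1, PSMB8 and PSMB9 in the high and low groups, with 1 point per library numbered by replicate and the mean ± SD (n = 5 each) beside the points, on axes that start at 0. The groups separate for PSMG3 (at most 7.96 RPKM in high, at least 9.13 in low) and overlap for the other genes.

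The activators bind the ends of the core and open it without ubiquitin. PSME1 (ENSSSCG00000002006), the alpha chain of the interferon-induced cap, had 63.6, 80.8, 61.4, 72.0 and 86.0 RPKM in high and 74.8, 96.1, 82.6, 73.9 and 67.6 RPKM in low. PSME2 (ENSSSCG00000002004), its beta chain, had 41.2, 48.8, 38.2, 41.3 and 55.8 RPKM in high and 45.5, 63.7, 48.4, 49.7 and 51.6 RPKM in low. Both chains were highest in low replicate 2 and lowest in high replicate 3, and PSME2 held 57.3% to 76.4% of the level of PSME1 in every library. The log2 difference was -0.12 (SE 0.14) for PSME1 and -0.20 (SE 0.14) for PSME2, with unadjusted p-values of 0.412 and 0.171 in limma.

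PSME3 (ENSSSCG00000017385), which forms a nuclear cap of its own, varied the most of the tested genes of the family. It had 32.1, 13.9, 29.5, 15.2 and 18.3 RPKM in high and 16.5, 31.2, 16.4, 10.7 and 14.4 RPKM in low. High replicates 1 and 3 and low replicate 2 stood at 29.5 to 32.1 RPKM and the other 7 libraries at 10.7 to 18.3, so the split crossed the groups. The 3 upper libraries were the 3 with the top scores on the first principal axis, and the lowest library of both was low replicate 4. On the log2 scale the difference was 0.28 (SE 0.29, adjusted p = 0.965 in limma), with an interval of -0.36 to 0.93. PSME4, a large monomeric activator known from sperm development and histone breakdown, was steady instead, with 10.17, 9.20, 8.99, 8.82 and 10.5 RPKM in high and 8.62, 9.66, 8.15, 9.55 and 9.34 RPKM in low. Its SD on the log2 scale was 0.098 and that of PSME3 was 0.52.

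The genes of the interferon-induced group were compared across the 10 libraries as single pairs. Of 18 pairs, among PSMB8, PSMB9, PSME1 and PSME2 and between each of these and other genes, IRF1 and PTPRC among them, 1 passed after adjustment over the 18. PSME1 and PSME2 had a Pearson r of 0.843 (permutation p = 0.0025, adjusted p = 0.0450) and a Spearman rho of 0.733 (permutation p = 0.0201, adjusted p = 0.121). Without the 2 libraries farthest from the median of PSME1, low replicate 2 and high replicate 3, r was 0.606. PSMB8 and PSME2 had r = 0.776 (permutation p = 0.00961, adjusted p = 0.0865), with rho = 0.745 (permutation p = 0.0173, adjusted p = 0.121) and r = 0.526 without low replicate 2 and high replicate 1.

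PSMB8 and PSMB9, neighbours on either side of TAP1 in the RefSeq annotation, had r = 0.659 (permutation p = 0.0304, adjusted p = 0.114), rho = 0.552 (permutation p = 0.106, adjusted p = 0.446) and r = 0.349 without low replicate 2 and high replicate 1. Low replicate 2 was left out in each of these, and each r fell. The libraries left out were the extremes of the first gene of a pair, and a narrower range by itself tends to lower r. The fall therefore cannot single out low replicate 2. IRF1, an interferon-induced activator of these genes, gave no pair that passed, with r from 0.184 (PSMB9, permutation p = 0.613, adjusted p = 0.613, and rho = -0.248, permutation p = 0.491, adjusted p = 0.589) to 0.520 (PSMB8, permutation p = 0.134, adjusted p = 0.242, and rho = 0.261, permutation p = 0.470, adjusted p = 0.589). PTPRC gave no pair that passed either. Its largest r was 0.680, with PSMB8 (permutation p = 0.0316, adjusted p = 0.114, and rho = 0.442, permutation p = 0.205, adjusted p = 0.446). That r was 0.317 without low replicate 2 and high replicate 1. All pairs share the scaling of their libraries. With 5 libraries a group was too small for r within it, and the labels do not say which libraries shared a lane.

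Of the assembly factors, PSMG3 had the higher mean in low and PSMD5 in high, and neither passed the test. PSMG3 (ENSSSCG00000007556) is a chaperone that helps to build the alpha ring of the core. It had 6.39, 7.96, 6.66, 7.86 and 7.96 RPKM in high and 9.30, 13.1, 9.23, 13.2 and 9.13 RPKM in low. All 5 low libraries lay above all 5 high libraries, with low replicates 2 and 4 well above the other 3. The mean was 7.37 ± 0.775 RPKM in high and 10.8 ± 2.14 in low. The log2 difference was -0.48 (SE 0.13), with an unadjusted p of 0.00429 and an adjusted p of 0.961 in limma, so PSMG3 did not pass over all genes. In the authors' deposited table it has a fold of 1.47 with a p of 0.00611, where the positive sign likewise goes with the higher mean in low.

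As a share of PSMB1 in the same library PSMG3 was 6.199% to 7.68% in high and 7.80% to 12.8% in low. Low replicates 2 and 4, where PSMG3 was highest, lay toward opposite ends of the first principal axis. PSMD5, which chaperones the ATPase ring, had 7.55 ± 1.24 RPKM in high and 6.88 ± 2.82 in low. Its lowest values, 3.86 and 4.42 RPKM, were in low replicates 4 and 5 and its highest, 10.8 RPKM, in low replicate 2, so the low values enclosed the high ones. The log2 difference of PSMD5 was 0.18 (SE 0.23, unadjusted p = 0.448 and adjusted p = 0.972 in limma).

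The subunits also differed in their spread over the 10 libraries. The median SD on the log2 scale was 0.11 over the 5 constitutive core genes and 0.14 over the 13 regulatory subunit genes. It was 0.36 over both immunoproteasome genes, 0.26 over all genes tested and 0.27 over the 2372 genes tested with mean levels in the range of the core and regulatory subunits. Of the 26 tested members 10 lay below the 10th percentile of all genes tested by SD. The largest SDs after that of PSME3 were those of PSMD5, PSMB9 and PSMD1, at 0.39, 0.38 and 0.37.

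**Figure D4:**
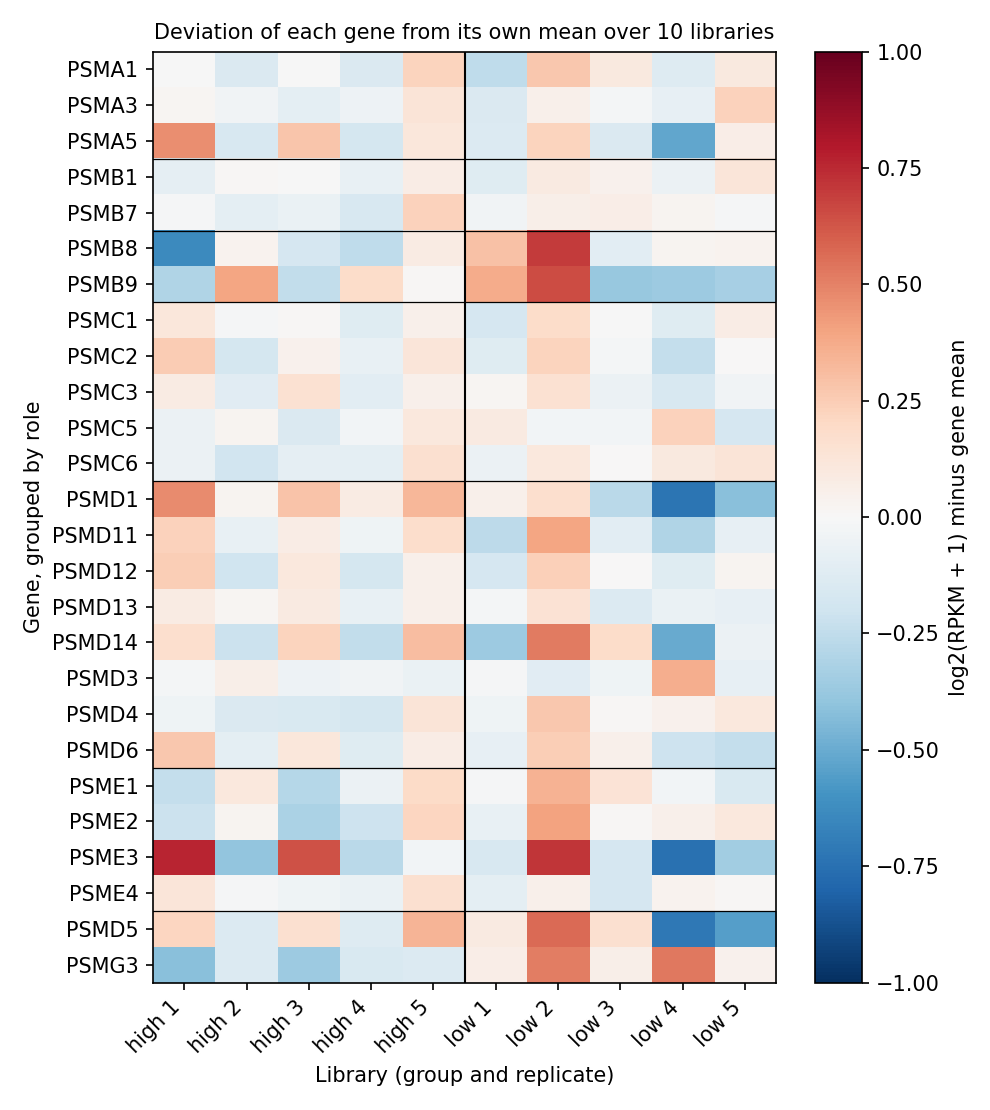
Deviation of log2(RPKM + 1) of each of the 26 tested genes (rows, grouped by role) from its own mean over the 10 libraries (columns, high left of the line and low right). Low replicate 2 has 24 of 26 genes above their mean and high replicate 4 has 2 of 26, and PSME3 shows the widest contrast. These counts were not set against those of all genes tested.

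The number of the 26 genes above their own mean was 14, 9, 12, 2 and 23 in high replicates 1 to 5 and 7, 24, 12, 9 and 13 in low replicates 1 to 5. The median deviation on the log2 scale was 0.23 in low replicate 2 and 0.11 in high replicate 5. In high replicate 4 it was -0.11, and the genes above their mean there were PSMB9 and PSMD1. The counts above the mean were not set against those of all genes tested. The highest value of a gene was in low replicate 2 for 12 of 26 members, where 24.9% of all genes tested had it there. The lowest value was in low replicate 4 for 8 members, against 18.2% of all genes tested. High replicate 1 held the highest value of 6, against 10.9%.

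Some regulatory genes had their extremes in opposite libraries along the first principal axis. PSMD14 had 26.3, 19.97, 27.4, 19.5 and 29.2 RPKM in high and 18.0, 33.9, 26.7, 16.2 and 22.5 RPKM in low. It was highest in low replicate 2 and lowest in low replicate 4, extremes shared with PSMC3, PSMD5 and PSMD11. PSMC5 instead had its highest value, 63.7 RPKM, in low replicate 4, as PSMD3 did, and its others lay between 48.1 and 58.3 RPKM. LOC100739694 and TBR1 overlap PSMD14 in the RefSeq annotation, and TBR1 did not exceed 0.02 RPKM. Whether reads over a shared stretch counted for PSMD14 was not tested.

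**Figure D5:**
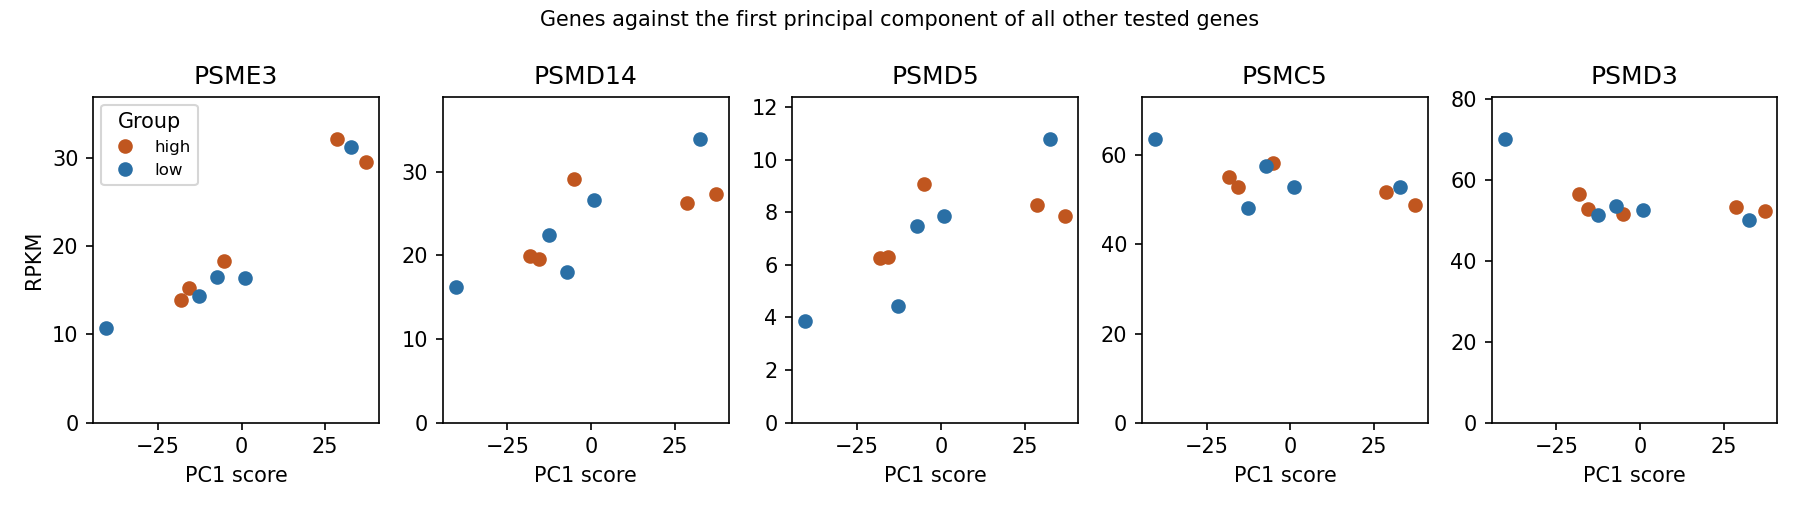
RPKM of PSME3, PSMD14, PSMD5, PSMC5 and PSMD3 (axes start at 0) against the score of each library on the first principal axis of the other tested genes, with 1 point per library. PSME3 is at 29.5 to 32.1 RPKM in the 3 libraries at the right end, and PSMC5 and PSMD3 are highest, at 63.7 and 70.2 RPKM, in low replicate 4 at the left end.

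Genes that work with the proteasome gave no call either. Of the other proteasome factors 8 were tested, among them the deubiquitinases USP14 and UCHL5 and the ATPase-ring chaperone PAAF1. None of the 8 passed, none reached an unadjusted p under 0.05, 6 were higher in high and the median log2 difference was 0.11. UCHL5 had 17.7 RPKM in low replicate 4 and 36.8 in low replicate 2, the same extremes as PSMD14. Of 14 genes of ubiquitin and its delivery, 0 passed or reached an unadjusted p under 0.05, and 8 were higher in high. VCP, the segregase that pulls ubiquitinated proteins out of membranes and complexes, had 103 ± 9.35 RPKM in high and 87.2 ± 9.40 in low (log2 difference 0.23, SE 0.12, adjusted p = 0.961 in limma).

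Among 9 genes that control proteasome genes 0 passed or reached an unadjusted p under 0.05, and 4 were higher in high. NFE2L1, the transcription factor that raises proteasome genes when the proteasome is inhibited, had 22.1 ± 2.84 RPKM in high and 19.1 ± 3.32 in low. Its lowest value, 14.3 RPKM, was in low replicate 4. Of 8 antigen processing genes 0 passed or reached an unadjusted p under 0.05. The fitted mean was higher in high for 5 and in low for 3, with a median log2 difference of 0.14. The peptide transporter genes TAP1 and TAP2 were among the 3. They had 2.42 ± 0.394 and 2.73 ± 0.333 RPKM in high and 2.87 ± 0.772 and 3.03 ± 1.04 in low. TAP1, TAP2 and PSMB8 had their highest value in low replicate 2, as did 24.9% of all genes tested. Of 13 interferon response genes 0 passed and 1 reached an unadjusted p under 0.05, IRF1 with 7.50 ± 2.29 RPKM in high and 9.98 ± 0.970 in low. That p was reached with the higher mean in low by 2.28% of all genes tested.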

How the data were processed

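Liver RNA of 10 pigs' samples (5 high, 5 low, grouped by the phenotype label) was sequenced in paired reads of 75 bases from TruSeq v2 libraries, with RNA integrity numbers of 7.1 to 8.1, per the labels' protocols. The authors deposited RPKM values per gene and library, with their own signed fold and p-value per gene, per the file headers. Per the submitters' processing notes, Sscrofa10.2 was the genome build. For the aligner, the counting and the test behind the deposited p-value no statement was found (not given in the sources used here). Dots marking digit groups in 624 high RPKM values were removed.

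Symbols came from a table of identifiers that matched 11779 of 25009 rows. The 10931 genes averaging 1 RPKM or more were tested as log2(RPKM + 1), which understates changes of low genes, with limma 3.58.1 in R 4.3.3 (lmFit, eBayes with trend, all 10 libraries, no covariate, two-sided, Benjamini-Hochberg over all genes, threshold 0.05). The fit was tested on simulated data. The simulation drew noise for each gene independently, without an axis shared by many genes, so it cannot say how many small differences were missed here. The design allowed for counts, but the values are RPKM, so no count test was run, and depth and counting intervals are unknown. Whether each sample is a separate animal is not stated, and p-values then cover only the spread among the 10 libraries, which may be technical. Correlations used 100000 permutations (two-sided, scipy 1.17.1). Replicate numbers only name libraries.

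The members and gene lists were chosen with earlier results of these data known. Values in every library are given for PSMB8, PSMB9, PSMB7, the 4 activators, the 6 members of smallest p and those of largest and smallest SD. PSMD3, PSMD14 and the other genes with such values were chosen after their values were seen. Some results of the correlations and gene lists are not reported here. Alternatives varied the pseudocount, filter, scaling, variance model and libraries. No sequence is shown because no sequence table was used here.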

Additional observations from a re-analysis of the deposited data

Results flagged for a closer look

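In 54 sets of 5 values (27 genes in 2 groups) 4 held a library far from the other 4 by the gap between it and its nearest neighbour relative to the range, where chance flags about 1 set in 20. All 4 were in the low group. PSMD3 had 70.16 RPKM in low replicate 4, against 53.7 in the next library. PSMD11 had 45.96 RPKM in low replicate 2, against 32.7 in the next. PSME3 had 31.16 RPKM in low replicate 2, against 16.5 in the next, a value that high replicates 1 and 3 also reached. PSMC3IP had 0.42 RPKM in low replicate 3, against 0.260 in the next, at a level below the filter of the test.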

How the results depend on the processing

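Over 18 alternatives of the fit (another pseudocount or filter, median centring, quantile normalization, limma without trend or robust, each library left out, and high replicates 1 and 5 left out together) 0 genes and 0 proteasome genes passed. The count of members at an unadjusted p under 0.05 was 2. It was 3 in 6 alternatives (median centring, quantile normalization, and without high replicate 2, high replicate 5, low replicate 2 or low replicate 3) and 1 without high replicates 1 and 5. The count over all genes moved too, from 497 of 10931 in the main fit. With median centring and quantile normalization it was 627 and 604 of 10931. Without high replicate 2 or 5 it was 625 of 10939 and 411 of 10895. Without low replicate 2 or 3 it was 815 of 10903 and 425 of 10930. Without high replicates 1 and 5 together it was 198 of 10917. The differences of PSMG3, PSMD1, PSMB8, PSME2, PSMD4, PSMA5, PSME1 and PSME3 kept their direction in all 18. With 1 library left out the difference of PSME3 ran from 0.13 to 0.50, that of PSMA5 from 0.10 to 0.29, that of PSME1 from -0.18 to -0.05 and that of PSME2 from -0.28 to -0.13. That of PSMB9 changed sign in 5 fits that left out 1 library (range -0.0753 to 0.187), and that of PSME4 was -0.0064 without high replicates 1 and 5. The cause was not tested. Of the 18 correlations 1 passed with all libraries and on the RPKM scale, and 0 passed without low replicate 4 or without high replicates 1 and 5, fits with fewer samples, where PSME1 and PSME2 had r = 0.851 and 0.798 (exact permutation, adjusted p = 0.0543 and 0.175). Without high replicates 1 and 5 the r of PSMB9 and IRF1 was -0.0271. DESeq2 and edgeR were not run because the values are not counts. No paired analysis was possible because the labels give no replicate numbers that the groups share. Because depth is unknown, the counting error of low values such as those of PSMC3IP is not known.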
